A study of Mus musculus with 23 samples.

Results

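The comparison set forebrain of mouse embryos homozygous for an altered Meis1 allele against forebrain of heterozygous embryos at embryonic stage E12.5. All 5 homozygote arrays and all 6 heterozygote arrays of that tissue entered, 11 of the 23 arrays of the series, chosen by the genotype, age and tissue that the labels give. Each array held total RNA of 1 embryo on the C57BL/6J background. The homozygotes were 3 males and 2 females, and the heterozygotes 3 males and 3 females. A further 5 E12.5 forebrain arrays of wild types (3 males, 2 females) shared the fit and the normalization and are given as levels only. By the first part of the mouse number, read here as the litter, litter 549 held 2 homozygotes and 2 heterozygotes. Litters 551 and 509 each held 1 homozygous male and 1 heterozygous female, and litter 542 held 1 homozygote and 2 heterozygotes. Within litters 551 and 509, sex and genotype therefore cannot be told apart. The sources used here do not give the change made to the gene, and the labels name Meis1 as the allele only for adult mice of the series. The labels call the tissue forebrain, whereas the series title speaks of ganglionic eminences.

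Meis1 is a homeobox transcription factor of the TALE class that binds DNA together with PBX and HOX proteins. It is expressed in the developing striatum and other brain regions, and also in blood stem cells and in megakaryocytes, the cells that shed platelets. Mouse embryos without working Meis1 are known to lack megakaryocytes and to bleed. Platelets carry chemokines in their granules and, on their surface, receptors for von Willebrand factor, fibrinogen, collagen and thrombin.

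Levels are log2 signals after background correction and quantile normalization, and a probe counts as detected on an array where its detection p was under 0.05. Changes are homozygote minus heterozygote on the log2 scale, fitted with limma with litter and sex as terms, and errors beside changes are standard errors (5 homozygotes and 6 heterozygotes). A gene was called at an adjusted p (Benjamini-Hochberg over 14340 probes) under 0.05. The spread between these embryos is what p-values are set against, and a level in whole tissue cannot tell fewer cells of a type from less RNA per cell. Between 52.4% and 54.8% of probes were detected per array, and median raw signal lay between 166 and 210. Dlx2, a marker of ganglionic eminences, lay between 9.41 and 10.17, and Nkx2-1, a marker of the medial eminence and hypothalamus, between 8.85 and 9.87, both detected on 11 of 11 arrays. The probes for Gsx2 and Pax6, which mark lateral eminence and cortical progenitors, were detected on 0 of 11. Hoxa5 and Hoxb8, genes of the spinal cord and hindbrain, were also detected on 0 of 11. Of 25 Hox genes on the array, 2 were detected on enough arrays to be tested. Hoxb2 was detected in 3 of 5 homozygotes and 5 of 6 heterozygotes, and Hoxa4 in 5 of 5 and 4 of 6. Xist and Eif2s3y separated the sexes as labelled.

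Few probes passed the test, and those that did were lower in homozygotes. In all, 10 of 14340 probes (0.0697%) were called lower and 0 (0%) higher, with 736 lower and 459 higher at an unadjusted p under 0.05. The 10 probes stood for Ppbp (2 probes), Treml1, Alox12, Gp9, Meis1, Pf4, Gp5, Mpig6b and 1 probe without a gene symbol. Apart from Meis1 and that probe, the 7 genes are known from platelets and megakaryocytes. All 10 probes were lower in homozygotes in each of the 4 litters. This adds no support, since for each of the 10 every homozygote lay below every heterozygote on the same arrays. Every homozygote lay below every heterozygote for 32 of 14340 probes (0.223%), of which 10 belonged to genes in the platelet lists used here. The opposite order, every homozygote above every heterozygote, held for 7 probes (0.0488%). The count of probes called fell to 6 without homozygote male 2 or heterozygote male 2, to 5 without litter 509 or litter 551 (both Ppbp probes, Treml1, Alox12 and Gp9), and to 2, both of Ppbp, without litter 549, which held 4 of the 11 arrays.

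**Figure D1:**
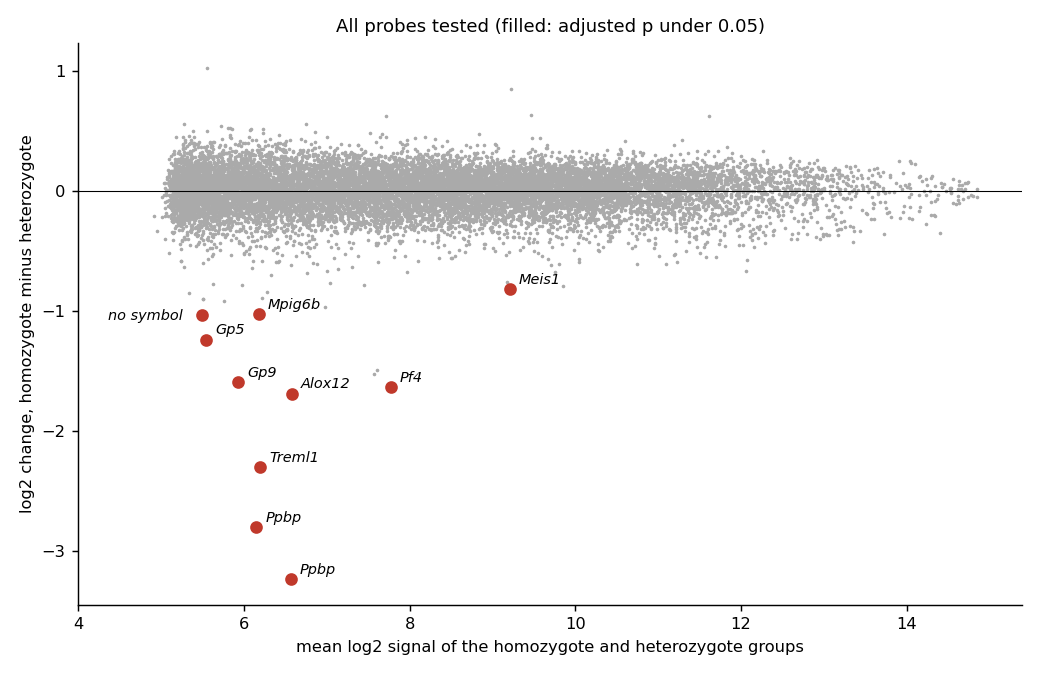
Fitted log2 change (homozygote minus heterozygote, vertical axis) of each of the 14340 probes tested against the mean log2 signal of both groups (horizontal axis). The 10 filled points passed an adjusted p of 0.05, and all 10 lie below 0, down to -3.24 for Ppbp.

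Meis1 was lower in homozygotes but still detected on each of their arrays. Its level was 8.96, 8.93 and 8.43 in homozygote males 1, 3 and 2, and 8.73 and 8.95 in homozygote females 1 and 2. The 6 heterozygotes lay between 9.43 and 9.81 with a median of 9.64, and the 5 wild types between 9.75 and 10.17. Every homozygote was thus below every heterozygote, and 1 wild type, male 1, fell within the heterozygote range. The change was -0.82 ± 0.11 (limma adjusted p = 0.00428), which is 0.568 of the heterozygote level. It was -0.88 in litter 509, -0.61 in litter 542, -0.73 in litter 549 and -1.25 in litter 551. With any 1 litter left out the size stayed between -0.71 and -0.87, and the adjusted p lay between 0.0559 and 0.169, above the threshold. The place of the Meis1 probe in the transcript, and whether the alteration removes it, were not given, so its signal does not show how much working Meis1 was made.

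Among the other tested members of the TALE class, 0 of 13 were called. Meis2, the relative that is abundant in the lateral eminence, changed by 0.10 ± 0.13 (unadjusted p = 0.457) and Meis3 by 0.07 ± 0.14 (unadjusted p = 0.645). Pbx3, a partner of MEIS proteins, gave 0.25 ± 0.12 (adjusted p = 0.599). Of the 14 tested members, 11 had a value above 0, beside 5154 of the 9730 genes tested.

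Ppbp and Treml1, of the platelet granule, had the largest called changes, and Pf4 was the only other granule gene called of 6 tested. Ppbp, the precursor of a platelet chemokine, lay at 4.91, 5.29 and 4.49 in homozygote males 1 to 3 and at 4.80 and 5.24 in homozygote females 1 and 2. In heterozygotes it ran from 7.79 to 8.63 with a median of 8.20. Homozygote male 2 was the 1 homozygote of 5 in which the probe was detected, while it was detected in 6 of 6 heterozygotes. The change was -3.24 ± 0.21 (limma adjusted p = 2.41e-06), measured against a group mostly at background, and -1.42 (adjusted p = 0.000562) when no background correction was made. A second Ppbp probe was not well above background on any homozygote array, so its level was at least 4.85-fold lower than in heterozygotes (measured change -2.80 ± 0.21, adjusted p = 8.00e-06). Such a bound sets the heterozygote mean against, on each homozygote array, the lowest signal among detected probes or the probe's own where higher. The bound holds for background-corrected signals only, and without that correction the second probe changed by -1.08.

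Pf4, also a granule chemokine, stayed detected in 5 of 5 homozygotes. It lay at 7.53, 7.04 and 6.55 in homozygote males 1 to 3 and at 6.19 and 7.46 in females 1 and 2, against 7.98 to 9.09 (median 8.58) in heterozygotes. The groups did not overlap, and the wild types, at 7.61 to 8.80, stood between and among the heterozygotes. Pf4 changed by -1.64 ± 0.24 (limma adjusted p = 0.0108), 3.11-fold. It was -0.996 without background correction, and the call was lost without homozygote male 2 (adjusted p = 0.0786) or heterozygote male 2 (adjusted p = 0.0502). Treml1, a receptor kept in platelet granules, lay at 4.80, 5.73 and 4.95 in homozygote males 1 to 3 and at 4.84 and 4.95 in females 1 and 2. Heterozygotes ran from 7.01 to 7.73 (median 7.27), and the change was -2.31 ± 0.23 (adjusted p = 0.000191), or -0.86 (adjusted p = 0.0110) without background correction. As for Ppbp, only homozygote male 2 had a detected signal among the homozygotes.

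The other 3 tested granule genes, Vwf, Thbs1 and F13a1, were not called, and whether their expression in other cells bears on this was not tested. Vwf, von Willebrand factor, which endothelium also makes, ran from 7.70 to 8.32 in homozygotes and from 7.82 to 8.39 in heterozygotes, a change of -0.03 ± 0.13 (adjusted p = 0.956). Thbs1, thrombospondin, gave 0.30 ± 0.18 (adjusted p = 0.646), and F13a1, a clotting factor subunit that macrophages also make, gave 0.15 (unadjusted p = 0.166). Selp, F5 and Srgn were on the array but did not pass the filter on dim probes, and Mmrn1 had no probe with its symbol.

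**Figure D2:**
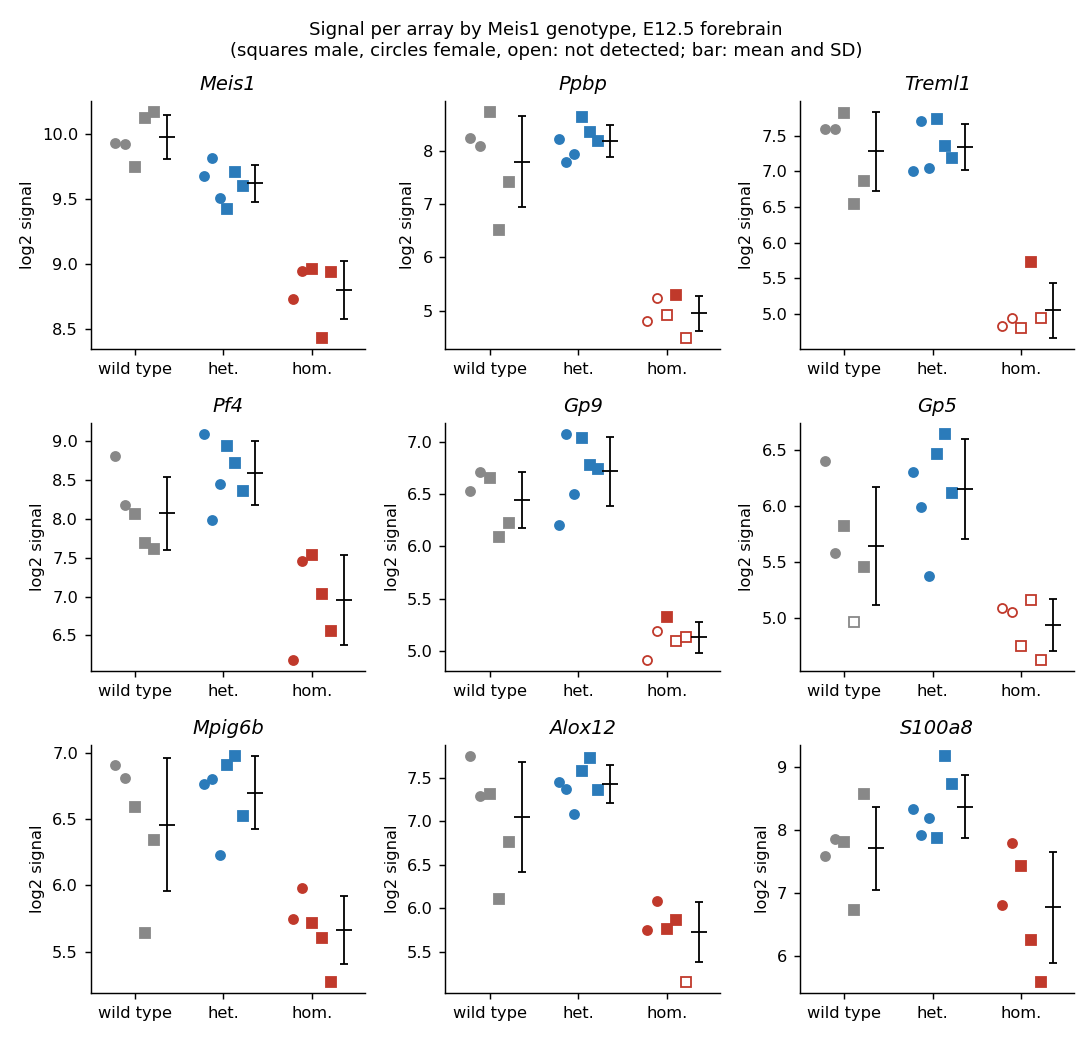
Log2 signal per array (vertical axis) of the 8 named genes called and of S100a8, by genotype (wild type grey, heterozygote blue, homozygote red). Squares are males, circles females, open symbols arrays on which the probe was not detected, and the bar gives the group mean and SD (n = 5, 6 and 5). For each of the 8 genes called every homozygote lies below every heterozygote, and S100a8 also shows no overlap of these groups.

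Of 3 tested genes for subunits of the receptor for von Willebrand factor, Gp9 and Gp5 were called lower in homozygotes. Gp9 lay at 5.33, 5.10 and 5.14 in homozygote males 1 to 3 and at 4.92 and 5.19 in females 1 and 2, while heterozygotes ran from 6.20 to 7.07 (median 6.75). The change was -1.60 ± 0.17 (limma adjusted p = 0.000298), with homozygote male 1 the only homozygote above background, and -0.52 (adjusted p = 0.0120) when no background correction was made. Gp5, of the same receptor, was not well above background in any homozygote and detected in 6 of 6 heterozygotes. Its signals were 4.76, 5.17 and 4.63 in homozygote males 1 to 3 and 5.09 and 5.06 in females 1 and 2, all below the heterozygotes, which ran from 5.38 to 6.64 (median 6.21). The level was at least 1.84-fold lower (measured change -1.24 ± 0.18, adjusted p = 0.0108). The call of Gp5 was lost without background correction (-0.37, adjusted p = 0.112). It was lost too with signals raised to the lowest detected of their array (-0.92, adjusted p = 0.0902). It was also lost without homozygote male 2, homozygote female 1, heterozygote male 2 or heterozygote female 2 (adjusted p from 0.0554 to 0.0901). Gp1bb, for a further subunit, gave -0.37 ± 0.12 (adjusted p = 0.599) and was not called.

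Mpig6b, an inhibitory receptor of megakaryocytes and platelets, was detected on every array of both groups. It lay at 5.72, 5.60 and 5.27 in homozygote males 1 to 3 and at 5.75 and 5.98 in females 1 and 2, and between 6.23 and 6.97 (median 6.78) in heterozygotes. The groups did not overlap, and the change was -1.03 ± 0.16 (limma adjusted p = 0.0243), 2.04-fold. The call was lost without background correction (-0.37, adjusted p = 0.171). It was also lost without any 1 of homozygote males 1, 2 and 3, homozygote female 1, heterozygote males 1, 2 and 3 or heterozygote female 2 (adjusted p from 0.0654 to 0.188). Of its 4 litters, 542 gave the smallest difference, -0.40. Itga2b, the platelet chain of the fibrinogen receptor, gave -0.90 ± 0.18 (adjusted p = 0.185), and Clec1b, the podoplanin receptor of platelets, gave -0.44 ± 0.10 (adjusted p = 0.342). The thrombin receptor genes F2rl2 and F2rl3 gave -0.51 ± 0.14 and -0.52 ± 0.17 (adjusted p = 0.599 for both). These 4 did not pass the test. P2ry1, an ADP receptor, and Jam3, an adhesion molecule of many cell types, had the values nearest to 0 of the receptor list, at -0.17 and -0.22.

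Alox12, the platelet 12-lipoxygenase that acts on arachidonic acid, lay at 5.77, 5.87 and 5.16 in homozygote males 1 to 3 and at 5.76 and 6.08 in females 1 and 2. Heterozygotes ran from 7.09 to 7.73 (median 7.41), with no overlap. The change was -1.69 ± 0.17 (limma adjusted p = 0.000191), 3.23-fold, and 4 of 5 homozygotes were above background. Without background correction it was -0.71 (adjusted p = 0.00404). A second probe for Alox12 was detected on 0 of the 16 E12.5 arrays and was not tested. Atp2a3, a calcium pump of platelets and other blood cells, was not well above background in any homozygote and lay just outside the threshold, at least 1.39-fold lower (measured change -0.85 ± 0.15, adjusted p = 0.0568). Tubb1, the tubulin of platelets, gave -0.59, Fermt3, an integrin activator of blood cells, gave -0.62 and Gng11, a G protein subunit, gave -0.56, none of them called. Tbxas1, thromboxane synthase, which macrophages also make, gave -0.05 (unadjusted p = 0.621).

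The 3 platelet lists (granule, receptor, and enzyme and cytoskeleton) named 41 genes, of which 34 were on the array and 24 passed the filter. Of these 24, 7 were called lower, 0 higher, and 22 had a change below 0, with 18 lower at an unadjusted p under 0.05. Over the 9730 genes tested, 8 were called lower, 4576 were below 0 and 520 (5.34%) were lower at an unadjusted p under 0.05. The median change was -0.54 over the 24 and 0.01 over all genes. Of the 24, 7 were detected in at most 1 homozygote and so passed the filter through the other genotypes, which by itself favours a lower value in homozygotes. The 13 detected in every homozygote include Pf4 and Mpig6b, but not Ppbp, Treml1, Gp9, Gp5 or Alox12. The lists were chosen with earlier results of these data known, so their counts are a description.

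**Figure D3:**
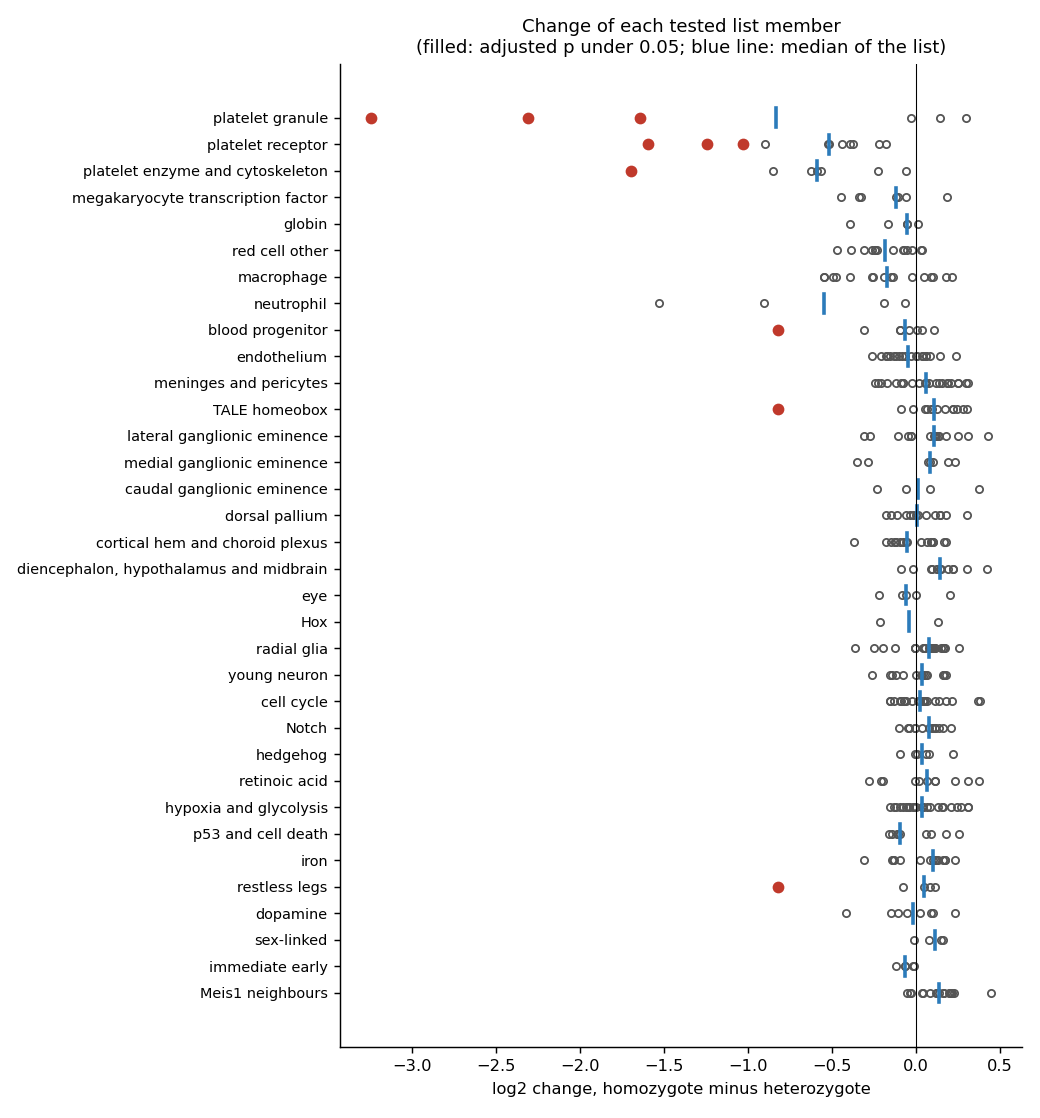
Fitted log2 change (homozygote minus heterozygote, horizontal axis) of each tested member of each gene list (rows), with members past an adjusted p of 0.05 filled and the list median as a blue line. Filled points appear in the 3 platelet lists and, as Meis1 itself, in the lists of blood progenitor, TALE homeobox and restless legs genes.

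The sequences just upstream of 4 of the platelet genes are shown because these genes moved together and MEIS, GATA and ETS factors are known to act at megakaryocyte promoters. Each runs over the 250 bases before the start of the gene, from RefSeq (build GRCm38.p6), at chr5:90768268-90768517 (Ppbp, plus strand), chr5:90772185-90772434 (Pf4, plus), chr6:87777820-87778069 (Gp9, plus) and chr16:30310782-30311031 (Gp5, minus). Capitals mark matches on either strand, so that some stand as reverse complements. The motif searched for MEIS and TGIF factors was TGACAG. For ETS factors it was AGGAAG, or the same with a first base of C instead. For GATA factors it was AGATAA, and the same with a first base of T, a last base of G, or both. No matches overlapped.
Ppbp: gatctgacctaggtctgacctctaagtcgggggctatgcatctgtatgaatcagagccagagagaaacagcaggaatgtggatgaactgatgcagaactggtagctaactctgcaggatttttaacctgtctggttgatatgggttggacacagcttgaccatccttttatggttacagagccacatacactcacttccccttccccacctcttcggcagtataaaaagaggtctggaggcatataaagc
Pf4: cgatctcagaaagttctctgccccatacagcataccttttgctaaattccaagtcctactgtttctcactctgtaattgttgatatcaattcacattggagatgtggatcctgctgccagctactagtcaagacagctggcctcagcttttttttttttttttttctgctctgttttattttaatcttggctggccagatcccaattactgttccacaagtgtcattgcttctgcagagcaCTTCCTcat
Gp9: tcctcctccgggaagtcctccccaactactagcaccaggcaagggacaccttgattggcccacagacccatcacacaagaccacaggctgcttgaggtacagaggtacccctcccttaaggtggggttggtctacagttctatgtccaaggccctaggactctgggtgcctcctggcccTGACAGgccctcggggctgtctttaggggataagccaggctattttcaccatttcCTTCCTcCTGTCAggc
Gp5: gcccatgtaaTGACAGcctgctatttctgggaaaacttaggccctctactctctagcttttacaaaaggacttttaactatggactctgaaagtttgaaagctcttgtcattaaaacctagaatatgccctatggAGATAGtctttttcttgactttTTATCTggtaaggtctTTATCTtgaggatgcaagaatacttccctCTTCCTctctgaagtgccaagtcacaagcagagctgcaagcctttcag

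The starts of Ppbp and Pf4 lie 3917 bases apart on chromosome 5, and their upstream sequences differ in these letters. The Ppbp sequence held none of the motifs, and that of Pf4 held 1 ETS motif, 9 bases before the start. Gp9 held 1 ETS motif and 2 copies of TGACAG, 71 and 9 bases before the start. Gp5 held 3 GATA motifs, 1 ETS motif and 1 TGACAG. Over the 7 platelet genes called, 2 promoters held a GATA motif, 3 an ETS motif and 3 TGACAG. Among all 32851 mouse promoters of the same length, 26.5% held a GATA motif, 39.2% an ETS motif and 15.9% TGACAG. These matches describe letters in a window and are not binding sites.

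Of 9 further transcription factors listed for the megakaryocyte lineage, 7 passed the filter and 0 were called, with values from -0.44 to 0.19. Nfe2, needed for platelet release, gave -0.44 ± 0.28 (adjusted p = 0.659), Gfi1b gave -0.33 ± 0.28 and Lyl1 gave -0.33 ± 0.24. Fli1, an ETS factor that endothelium also makes, gave 0.19 ± 0.20. Gata1 and Runx1 were on the array but did not pass the filter. Nfe2, Gfi1b, Tal1 and Lyl1 are also expressed in red cell precursors.

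Red cell genes varied more between embryos than between these genotypes. Of 5 tested globin genes 0 were called, with a median change of -0.05, and of 14 other red cell genes 0 were called, with a median of -0.18 and 12 values below 0. Hba-a1, an alpha globin, stood at the highest normalized signal, 14.91, on 1 of 5 homozygote and 4 of 6 heterozygote arrays, so its level there is at a ceiling. The beta globin Hbb-bt, well below it, was 10.83 in homozygotes and 11.09 in heterozygotes on average, a change of -0.39 ± 0.23 (adjusted p = 0.645). The mean level of the 14 red cell genes ran from 6.99 to 8.62 in homozygotes and from 7.88 to 8.97 in heterozygotes. Its difference was -0.98 in litter 509, 0.27 in litter 542, -0.45 in litter 549 and 0.74 in litter 551, which is both directions. The mean level of the 11 platelet receptor genes differed by -0.75, -0.45, -0.84 and -0.57 in the same order. That level ran from 5.86 to 6.14 in homozygotes and from 6.50 to 6.84 in heterozygotes. For the 6 granule genes it ran from 6.47 to 6.83 against 7.54 to 7.94, and for the 7 enzyme and cytoskeleton genes from 5.91 to 6.33 against 6.64 to 6.94. None of these 3 sets of values overlapped. The platelet means hold genes at background in homozygotes, which passed the filter through the other genotypes, and the lists were chosen with results known, so this separation is a description only.

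**Figure D4:**
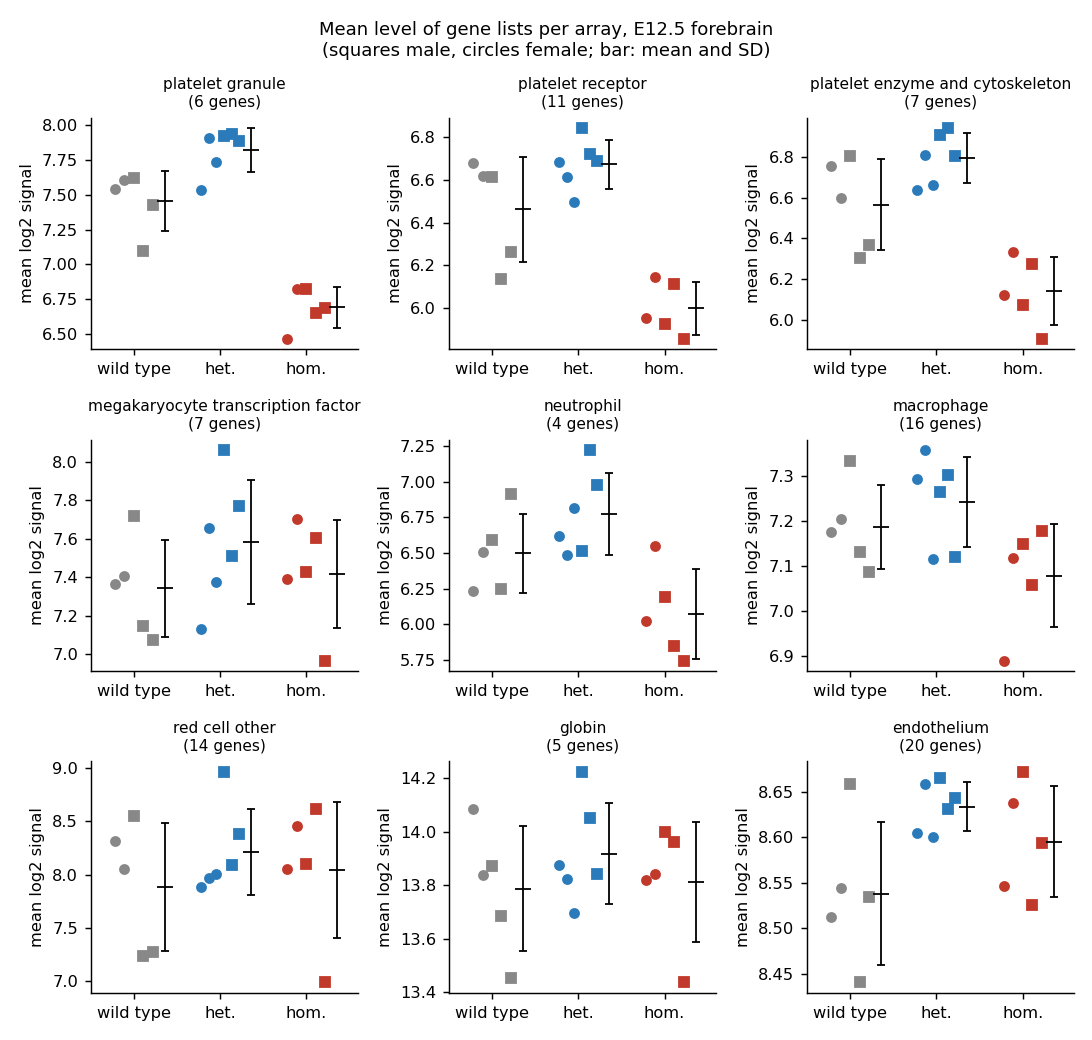
Mean log2 signal of each list's tested genes per array (vertical axis) by genotype (wild type grey, heterozygote blue, homozygote red), with squares for males, circles for females and bars for the group mean and SD (n = 5, 6 and 5). The 3 platelet lists in the top row, which hold genes at background in homozygotes, show no overlap of these with heterozygotes, while the red cell, globin and endothelium lists overlap between these genotypes.

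None of the tested neutrophil or macrophage genes was called. S100a8, a calcium-binding protein of neutrophils, was the nearest to the threshold, at 7.42, 6.25 and 5.58 in homozygote males 1 to 3 and 6.80 and 7.79 in females 1 and 2. Heterozygotes ran from 7.87 to 9.18 (median 8.27), so the groups did not overlap, and the change was -1.53 ± 0.26 (limma adjusted p = 0.0503). Its partner S100a9 gave -0.90 ± 0.30 (adjusted p = 0.599). Of 13 neutrophil genes listed 4 passed the filter, and the primary granule genes Elane (-0.19) and Prtn3 (-0.07) had smaller values. All 4 had a value below 0, with a median of -0.54, beside -0.54 over the 24 tested platelet genes. The mean level of the neutrophil list ran from 5.74 to 6.55 in homozygotes and from 6.49 to 7.22 in heterozygotes. On that mean 4 homozygotes lay below every heterozygote, and homozygote female 2 lay within the heterozygote range. Within litters its difference ran from -0.35 to -0.77. Stfa1, a cysteine protease inhibitor of neutrophils, gave -1.49 ± 0.30 (adjusted p = 0.154), and Plac8, expressed in several kinds of white cell, gave -0.77 ± 0.13 (adjusted p = 0.0503).

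Over the 9730 genes tested, 4576 had a value below 0 and 520 (5.34%) were lower at an unadjusted p under 0.05. Of the 16 tested macrophage genes, 0 were called, 11 had a value below 0 and 5 were lower at that p. Tyrobp (-0.55 ± 0.11, adjusted p = 0.211) and Fcer1g (-0.54 ± 0.13, adjusted p = 0.478), adaptors of immune receptors in many blood cells including platelets, had the lowest values. Lyz2, lysozyme, gave -0.47 and C1qb, a complement subunit, gave -0.39. Cx3cr1 and Mrc1, also genes of microglia and tissue macrophages, gave 0.10 and 0.09 and were among the 5 members with a value above 0. The median of the list was -0.17. The mean level of the macrophage list ran from 6.89 to 7.18 in homozygotes and from 7.12 to 7.36 in heterozygotes, an overlap of 3 of 5 homozygotes with the heterozygote range. The part of white blood cells in the values of shared genes such as Fermt3 and Atp2a3 was not tested.

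Among 8 tested blood progenitor genes only Meis1 was called. Cd34, a marker of progenitors and endothelium, gave -0.31 ± 0.12 (adjusted p = 0.599). Myb, Erg and Flt3 did not pass the filter. The 20 endothelial genes had 0 calls, 11 values below 0, 9 above and a median of -0.05, with Pecam1 at 0.24 ± 0.12 and Egfl7 at -0.21 ± 0.11. The mean endothelial level was 8.59 ± 0.06 (SD, n = 5) in homozygotes and 8.63 ± 0.03 (SD, n = 6) in heterozygotes. Of the 23 tested genes of meninges and pericytes 0 were called, with a median of 0.06.

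Brain genes showed no called change between the genotypes. Lists of the lateral, medial and caudal ganglionic eminences, dorsal pallium, radial glia and young neurons held 78 tested genes, of which 0 were called, 3 had an unadjusted p under 0.05 downward and 3 upward. The median change of the 78 was 0.07. Over the 9730 genes tested, 520 had such a p downward and 295 upward. In the lateral eminence, Tac1, a neuropeptide precursor of striatal neurons, gave -0.27 ± 0.11 and Gsx1, a progenitor homeobox gene, -0.31 ± 0.13, while Ebf1, a factor of striatal projection neurons, gave 0.43 ± 0.19 (adjusted p = 0.599 for each). Dlx1 and Dlx2, which drive the inhibitory neuron programme, gave 0.14 and 0.11 (unadjusted p = 0.403 and 0.511). In the caudal eminence Nr2f2 gave 0.38 ± 0.16 and Calb2 gave -0.23 ± 0.10, neither of them called. Sst, the somatostatin gene of interneurons, gave -0.35 ± 0.18, with 0.12 in males and -0.93 in females (limma unadjusted p = 0.0129 for the difference). Ebf1 gave 0.91 in males and -0.13 in females (limma unadjusted p = 0.0245). Neither difference between the sexes was called.

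Of 13 tested genes of diencephalon, hypothalamus and midbrain, 11 had a value above 0 and 0 were called, with a median of 0.15. Tcf7l2, a thalamic factor, had the highest value, 0.42 ± 0.18 (adjusted p = 0.599). The mean level of that list differed by 0.90 in litter 551 and by -0.26 in litter 542, and its range of 8.01 to 8.82 in homozygotes lay largely within the 7.66 to 8.71 of heterozygotes.

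No gene was called higher in homozygotes. Ltbp1, a binding protein of latent TGF-beta, had the smallest p among the genes with higher values. It was 5.80, 5.53 and 5.21 in homozygote males 1 to 3 and 5.64 and 5.56 in females 1 and 2, against 4.84 to 5.14 (median 5.03) in heterozygotes. The groups did not overlap, and the probe was detected in 4 of 5 homozygotes, 0 of 6 heterozygotes and 1 of 5 wild types. It thus passed the filter mainly through the homozygotes, which by itself favours a higher value in them. Of 6 Ltbp1 probes on the array, only this 1 was tested. The change was 0.56 ± 0.11 (limma adjusted p = 0.138). The next by p were Dnaic1 (0.39), Gpkow (0.40), Commd2 (0.44) and Ckap2l (0.41). Spred2, an inhibitor of Ras signalling that lies next to Meis1 on chromosome 11, gave 0.45 ± 0.13 (adjusted p = 0.599), near background with 3 of 5 homozygotes and 1 of 6 heterozygotes detected. Of the 10 measured genes on each side of Meis1, 17 were tested, 0 were called and 14 had a value above 0, with a median of 0.14.

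The called genes were then compared across litters, sexes and wild types. Within litters the change of Ppbp ran from -2.82 (litter 542) to -3.64 (litter 549), that of Treml1 from -1.27 (litter 551) to -2.76 (litter 509) and that of Alox12 from -1.14 (litter 542) to -2.21 (litter 509). Gp9 ran from -1.11 in litter 551 to -1.94 in litter 509. Litter 542 gave the smallest drop for Meis1, the first Ppbp probe, Pf4, Gp5, Mpig6b and Alox12, and litter 551 for Treml1 and Gp9. The second Ppbp probe dropped least in litter 509 (-2.17, against -2.39 in litter 542).

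**Figure D5:**
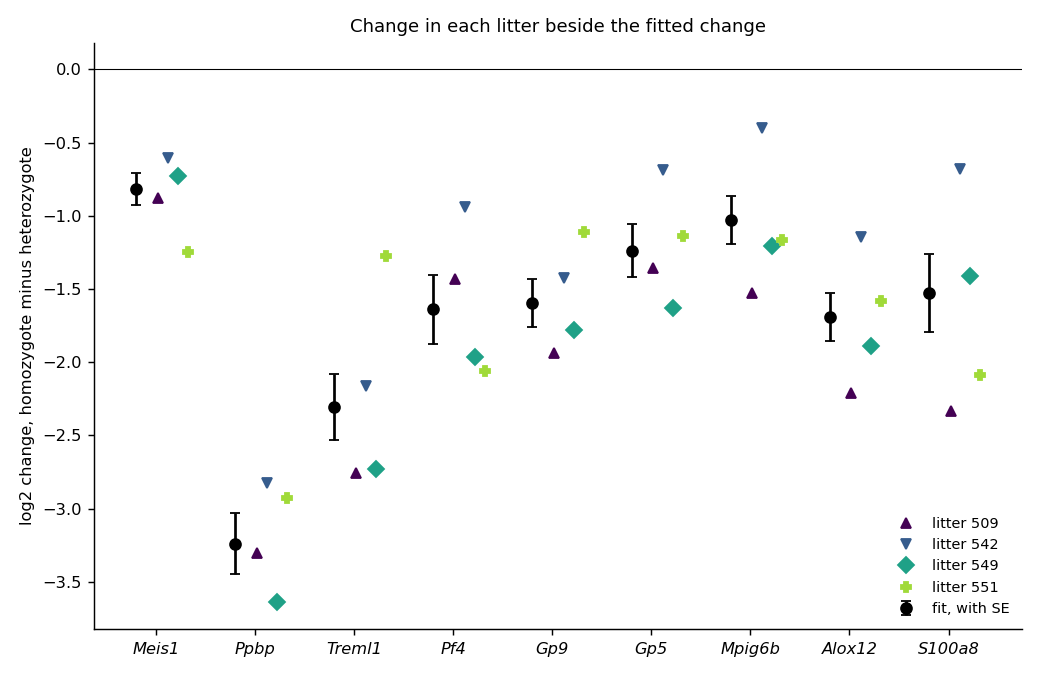
Log2 change (homozygote minus heterozygote, vertical axis) of 9 genes, as fitted over all litters with its standard error (black) and as the plain difference of means within each of the 4 litters (coloured). All values lie below 0, and Ppbp, between -2.82 and -3.64, lies lowest in each litter.

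A test of the difference between males and females called 0 of 14340 probes with limma, and 359 had an unadjusted p under 0.05. Among the called probes Gp5 came nearest, with a change of -1.73 in males and -0.68 in females (unadjusted p = 0.00737, adjusted p = 1.00). For Meis1 the change was -0.78 in males and -0.86 in females, and for Pf4 -1.59 and -1.74.

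In 9 of the 10 called probes, Meis1 being the exception, the heterozygote mean was above the wild type mean. These probes were called for heterozygotes above homozygotes on the same arrays, which by itself favours a high heterozygote mean. The share over all probes was not counted. The means are not adjusted for litter, and litter 549 held heterozygotes but no wild types. The mean of Ppbp was 8.19 ± 0.30 (SD, n = 6) in heterozygotes and 7.80 ± 0.86 (SD, n = 5) in wild types, and that of Gp5 was 6.15 and 5.65. Wild type male 2, with 6.52 for Ppbp, was the lowest wild type but lay above the highest homozygote, at 5.29. Levels of Gp5 and of Mpig6b overlapped between wild types and homozygotes in this male, with 4.97 and 5.64.

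The called probe without a symbol lay at 4.66 to 5.36 in homozygotes and at 5.69 to 6.35 in heterozygotes. Its change was -1.03 ± 0.15 (limma adjusted p = 0.0108), or -0.30 (adjusted p = 0.171) without background correction, and it was detected in 1 of 5 homozygotes and 6 of 6 heterozygotes. Its call was lost without homozygote male 2, homozygote male 3, homozygote female 1, heterozygote male 2 or heterozygote female 2 (adjusted p from 0.0554 to 0.0901). Lipa, a lysosomal lipase, gave 0.34 ± 0.11 (adjusted p = 0.599). Around the threshold, Mpig6b (adjusted p = 0.0243) was the last gene inside, and S100a8 and Plac8 (adjusted p = 0.0503 for both) were the first outside.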

How the data were processed

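Each Illumina array, of 25697 probes, held total RNA of 1 embryo and was read with GenomeStudio 2011.1, per the submitters' processing notes. The deposited table that was not normalized gives each probe's intensity on a linear scale and, per the file headers, a detection p-value against negative control probes. The authors' processed intensity table, used as an alternative, has no method of scaling given in the sources used here.

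Intensities were corrected with neqc in limma 3.58.1 (R 4.3.3, noise from the detection p-values, offset 16), quantile normalized over the 16 E12.5 arrays and put on the log2 scale. Probes detected (p under 0.05) on at least 5 of 16 arrays were kept, 14340 in all, covering 9730 of 16593 genes. Symbols came from GEO's platform annotation, in which 23978 probes had 1 symbol and 1719 none, and 0 symbols changed when Entrez numbers matched 23962 probes to RefSeq. The fit (lmFit and eBayes, two-sided) held genotype, litter and sex, with Benjamini-Hochberg adjustment and a threshold of 0.05. The script was tested on simulated data. The number of arrays limits the precision. Of the variance, 39.6% lay on the first principal component, and of that component 91.3% went with litter and 4.02% with genotype. No pair of the 11 arrays held the same values, since the smallest SD of their log2 differences was 0.25. That SD cannot tell whether 1 RNA was used on more than 1 array. Values of litters and lists are plain means of normalized levels.

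Members and lists were chosen with earlier results of these data known. Named are genes past the threshold, the 10 of smallest p in each direction among the rest (of which the text gives some), up to 4 members of smallest p per list, Lipa and Vwf, with 1 probe per gene (highest mean signal) unless another passed. Members outside this rule, such as F13a1, Tbxas1, P2ry1, Jam3, F2rl3, Tubb1, Meis2, Meis3, Cx3cr1, Mrc1, Dlx1 and Dlx2, were named for their roles after their values were seen, as was Prap1. Alternatives changed the background correction, scaling, filter, values, arrays, model terms, variance model, litters and replicates.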

Additional observations from a re-analysis of the deposited data

Results flagged for a closer look

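A homozygote or heterozygote array far from the others of its group was looked for in 86 groups of values, and 3 were found. The groups held levels of named genes or mean levels of gene lists. Chance alone marks about 1 group in 20. Treml1 was 5.73 in homozygote male 2, above the 4.80 to 4.95 of the other homozygotes. Ccl9, a chemokine of myeloid cells, was 5.49 in heterozygote female 2, below the 6.26 to 6.70 of the other heterozygotes. Scrn1 was 8.81 in heterozygote male 1, below the 9.36 to 9.55 of the other heterozygotes.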

How the results depend on the processing

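The main count was 10 probes lower and 0 higher. Under 37 alternatives the lower count ran from 1 to 14, and the first Ppbp probe was called in 37 of 37. Treml1 and Alox12 were called in 35, Gp9 in 34, Meis1 in 31, Pf4 in 28, Gp5 in 24 and Mpig6b in 21. The lower count was 6 with no filter, 3 in males alone, 1 in females alone, 5 without litter 509, 2 without litter 549 and 5 without litter 551. Leaving out 1 array at a time gave 6 to 14 lower and 0 higher, with 6 without heterozygote male replicate 2 or homozygote male replicate 2. Meis1, both Ppbp probes, Treml1, Alox12 and Gp9 were called in each of these 16 fits, while Mpig6b was lost in 8, the probe without a symbol in 5, Gp5 in 4 and Pf4 in 2. One probe was called higher in the authors' processed table (1, Ltbp1) and in males alone (1, Prap1). Meis1 missed the threshold in males alone (-0.63, adjusted p = 0.570), in females alone (-0.83, adjusted p = 1.00) and without litter 509 (-0.81), 542 (-0.87), 549 (-0.84) or 551 (-0.71). The alternatives with single sexes or 1 litter fewer rest on fewer arrays. The log2 change of Vwf ran from -0.27 to 0.064 over the 37 alternatives. It turned to 0.014 with array weights, 0.054 in males alone and 0.00980 without litter 509, and ran from -0.069 to 0.064 with 1 array left out. Dlg2 turned to -0.12 in females alone.

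Same-numbered homozygotes and heterozygotes of a sex came from different litters in 4 of 5 cases, and the correlations of their deviations ran from -0.20 to 0.38, so the numbers do not pair the samples. With a replicate block in place of litter and sex, 9 probes were called lower, Meis1 among them (adjusted p = 0.0451). With a replicate block beside litter, added after seeing the data, 10 were called lower. Raising each signal to the lowest detected of its array, also added after seeing the data, gave 9. The call lost there was that of Gp5 (-0.92, limma adjusted p = 0.0902).

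Low signal limits the sizes of the platelet genes called. Without background correction the change was -1.42 for Ppbp, -1.08 for its second probe, -0.86 for Treml1, -0.71 for Alox12, -0.52 for Gp9, -0.996 for Pf4, -0.37 for Gp5 and -0.37 for Mpig6b, and the last 2 were not called.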

Other observations

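Further lists held no called gene besides Meis1. Of 25 tested genes of hypoxia and glycolysis, 14 had a value above 0, with a median of 0.04, and of 15 iron genes 10 did, with a median of 0.10. Of 5 tested genes associated with restless legs syndrome, the 4 besides Meis1 lay between -0.08 and 0.12. Of 8 dopamine genes, Gch1, which makes a cofactor of dopamine synthesis, had the lowest value, -0.42 (adjusted p = 0.599), while its second probe gave 0.07. Of 21 cell cycle genes, 12 had a value above 0, with a median of 0.02, and of 18 genes of the cortical hem and choroid plexus 10 had a value below 0, with a median of -0.05.

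Prap1 varied between embryos of the same genotype. It was 9.40 in homozygote male 1, 8.36 in wild type female 2, 7.02 in wild type male 3, 6.19 in homozygote female 2 and 6.13 in heterozygote male 1. In each of the other 11 embryos it was 5.41 or lower. The change was 1.02 ± 0.71 (limma adjusted p = 0.681).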
